A study of Arabidopsis thaliana with 4 samples.

Results

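Transcript levels were compared between larp1 and wild-type (WT) Arabidopsis thaliana plantlets that had both been heated to 38 °C. This comparison uses 2 of the 4 RNA-seq libraries of the series, 1 per group, taken as the libraries that the labels name larp1 at 38 °C and WT at 38 °C. Each library came from 6 to 8 whole Columbia-0 plantlets, pooled, which were 21 days old and had spent 15 min in liquid medium at 38 °C. The other 2 libraries, larp1 and WT kept in medium at 20 °C for the same time, served to show whether a difference was also there without heat. The larp1 plantlets carry the mutant allele that the headers of the authors' deposited gene lists call larp1-1, in both temperature groups, and no allele is named for WT. How the allele was made is not given in the sources used here. With 1 pool a group nothing here could be checked against replicates, so no p-values are printed and the values describe these libraries.

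LARP1 belongs to the La-related proteins, which bind RNA. In Arabidopsis it works with XRN4, the cytoplasmic exoribonuclease that degrades mRNA once its cap is removed, in the decay of many mRNAs during heat stress. Plants that lack LARP1 tolerate heat poorly. In mammals LARP1 binds mRNAs that begin with a terminal oligopyrimidine (TOP) tract, which encode ribosomal proteins and other parts of the translation machinery, and it controls their stability and translation. Heat shock itself switches on chaperone genes through heat shock factors within minutes.

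The larp1 library at 38 °C rests on about 44931600 reads and the WT library on about 42608600. Levels are in RPM, reads scaled to library size, added up over the distinct exon entries of each gene, and the log2 ratios are of larp1 over WT after adding the worth of 1 read to each. Ranges in brackets give the 95% counting error and no other error, and reads without molecular identifiers are not independent molecules. Genes with 50 reads or more in either library were compared, which left 18528 of 25819 genes, 18404 of them nuclear. A call, higher or lower, needed a 2-fold difference and an interval that excluded no change.

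LARP1A (AT5G21160), the gene of the mutant, was lower in the library labelled larp1. It stood at 9.29 RPM in larp1 and at 33.1 RPM in WT, which is 28.1% of the WT level (log2 ratio -1.83 [-1.99, -1.67]). The residual reads were unevenly spread over the gene. Of its 18 distinct exon entries, 11 had at least 25 reads in WT, and in larp1 these entries lay between 2.08% and 69% of WT, with 7 below 25% and 2 at 50% or more. The entry with the largest loss had 0.04 RPM, 2 reads, in larp1 and 1.92 RPM, 82 reads, in WT, which is 2.08% [0.275%, 8.63%] by counting error. At the other end, the entry with 2.14 RPM in larp1 and 3.1 RPM in WT kept 69%, with an interval that begins at 52.5%. Those 2 entries were picked as the extremes of the 11, so their intervals, which do not overlap, are no test. At 20 °C, in the other 2 libraries, the same entries stood at 10.8% and 61.8% of WT. The table gives no positions for the entries.

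**Figure D1:**
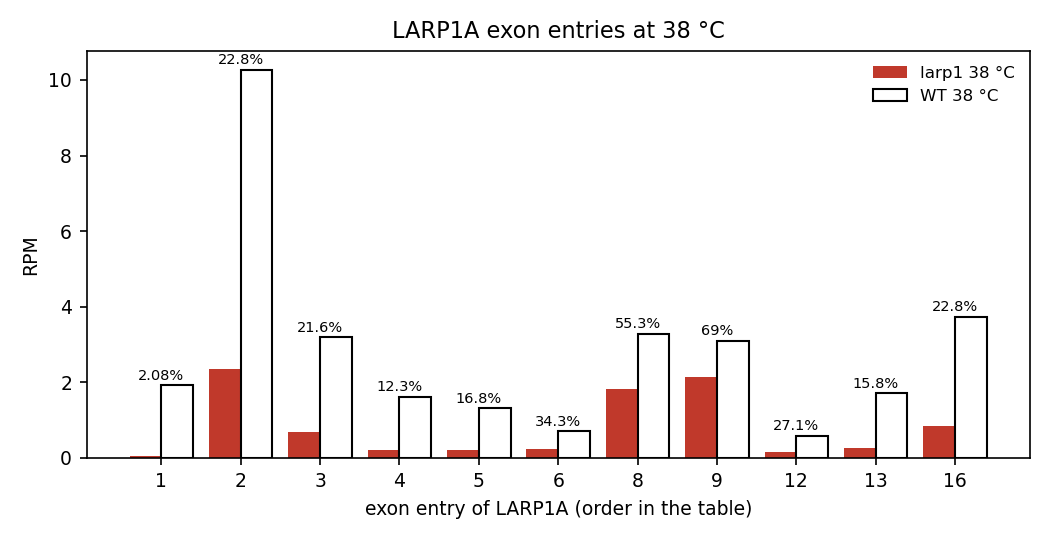
RPM of each LARP1A exon entry with at least 25 reads in WT, for larp1 at 38 °C (filled bars) and WT at 38 °C (open bars), 1 library each, with larp1 as a percentage of WT above each pair. The larp1 bar is below the WT bar in all 11 entries, from 2.08% in entry 1 to 69% in entry 9.

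The paralogs LARP1B (AT5G66100) and LARP1C (AT4G35890) were not lower. LARP1B stood at 28.3 RPM in larp1 and 22.3 RPM in WT, a log2 ratio of 0.34 [0.22, 0.47]. LARP1C stood at 28.3 RPM in larp1 and 20.1 RPM in WT, a log2 ratio of 0.49 [0.37, 0.62], so both were above the median of all genes, 0.14, but under 2-fold. At 20 °C the same ratios were -0.10 for LARP1B and -0.01 for LARP1C. Among the other La-motif genes compared, LARP6B, the most abundant, stood at 293 RPM in larp1 and 279 RPM in WT.

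Far more genes were higher than lower in heated larp1. Of the genes compared, 726 (3.92%) were called higher and 37 (0.200%) were called lower, 4.12% in both directions together. The larger differences were also on the higher side: 261 genes were higher by 4-fold or more and 42 by 16-fold or more, while 4 were lower by 4-fold or more. The bulk of the transcriptome stayed close to WT, with 95.9% of genes within 2-fold and the middle 90% of genes between -0.34 and 0.86 on the log2 scale. The median gene lay at 0.14, so the medians of gene groups below are to be read against that value and not against 0. Scaling by TMM factors in place of library totals would move every log2 ratio down by 0.148.

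Calls of higher genes were more frequent at low mean levels. With genes sorted by the mean of both libraries into 5 bins of near-equal size, 9.22% were called higher in the lowest bin (up to 3.15 RPM), against 1.57% in the highest bin (from 33.1 RPM). A gene could enter through its larp1 reads alone, so the level in WT of the genes called higher is low by selection. Together they held 13379 RPM in larp1 and 3837 RPM in WT. The genes called lower summed to 789.5 RPM in larp1 and 2501 RPM in WT. Among genes with a single exon entry 8.78% were called higher, against 3.06% of those with more entries. In bulk plantlets, fewer cells of a type and less RNA per cell cannot be told apart.

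**Figure D2:**
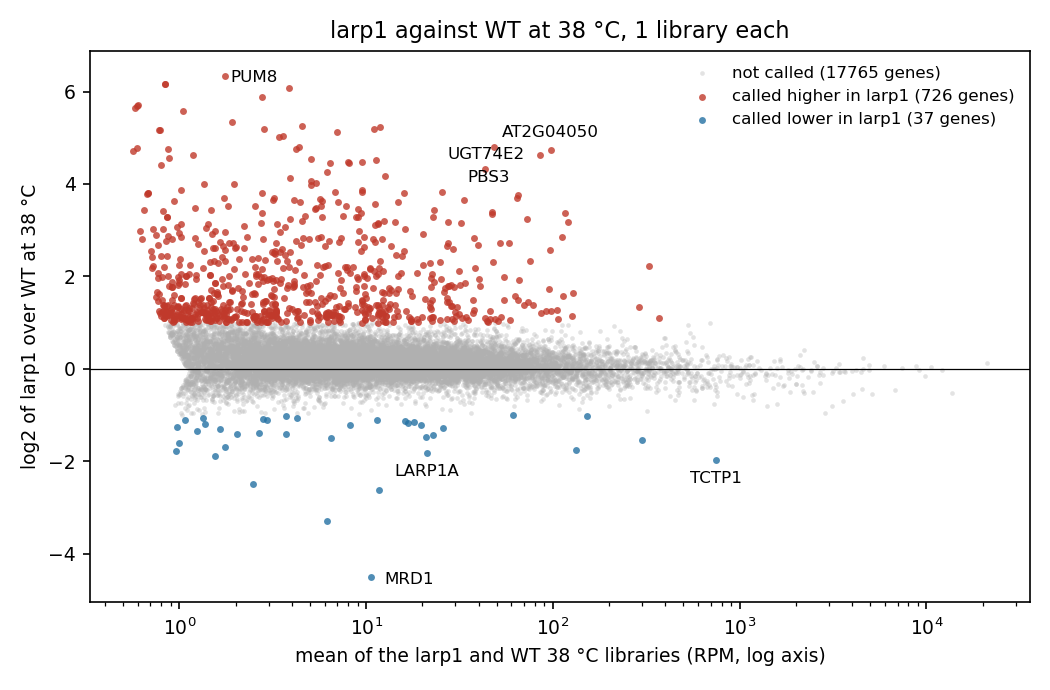
Log2 ratio of larp1 over WT at 38 °C against the mean RPM of both libraries (log axis), 1 point per compared gene. Genes called higher (726) are more frequent at low levels, and the 37 called lower include LARP1A and the abundant TCTP1.

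Of the 15 highest genes, 13 were below 1 RPM in WT. The 15 with the largest log2 ratio among called nuclear genes with at least 100 reads in 1 library are named here. PUM8 (AT1G22240), a member of the Pumilio family of RNA-binding proteins that bind mRNA 3′ regions, stood at 3.5 RPM (157 reads) in larp1 and at 0.02 RPM (1 read) in WT. With 1 read in WT its log2 ratio, 6.34, has an interval from 4.72 to 12.53. UGT73C1 (AT2G36750), a glucosyltransferase that can act on cytokinins, stood at 7.59 RPM in larp1 and 0.09 RPM, 4 reads, in WT (6.07 [4.97, 8.22]). Both genes were thus at the edge of detection in WT and well above it in larp1.

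WRKY59 (AT2G21900), a transcription factor of the WRKY family, stood at 5.49 RPM in larp1 and 0.07 RPM, 3 reads, in WT (5.88 [4.72, 8.57]). ALD1 (AT2G13810), the aminotransferase that starts synthesis of the systemic immunity signal pipecolic acid, stood at 23 RPM in larp1 and 0.59 RPM in WT (5.23 [4.72, 5.93]). MC8 (AT1G16420), a metacaspase, a type of cysteine protease linked to cell death, stood at 8.83 RPM in larp1 and 0.21 RPM in WT (5.24 [4.45, 6.53]). WRKY59 and CYP96A5 (AT2G21910), a cytochrome P450 also among the 15, are neighbours in the genome.

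Cell-surface receptors formed a second set among the highest. The cysteine-rich receptor-like kinases CRK37 (AT4G04500) and CRK38 (AT4G04510), which are neighbours on the chromosome, stood at 21.4 and 5.56 RPM in larp1 and at 0.56 and 0.13 RPM in WT. RLP20 (AT2G25440), a receptor-like protein, stood at 13.6 RPM in larp1 and 0.37 RPM in WT (5.12 [4.47, 6.00]). These receptors detect or relay extracellular signals, many of them from pathogens.

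Enzymes and exporters made up most of the remainder. The cytochromes P450 CYP96A5 (AT2G21910) and CYP76C5 (AT1G33730) stood at 7.01 and 8.46 RPM in larp1 and at 0.19 and 0.28 RPM in WT. The MATE transporters AT2G04050 and AT2G04070, which export toxic compounds, reached by far the highest levels of the 15. AT2G04050 stood at 187 RPM in larp1 and 6.98 RPM in WT (4.74 [4.58, 4.92]), and AT2G04070 at 93.4 RPM in larp1 and 3.32 RPM in WT (4.80 [4.58, 5.07]). These paralogs may share reads, so how the signal splits between them is uncertain. The other 3 genes, AT3G54520 of unknown function, the predicted hydrolase AT5G24200 and the transposable element gene AT3G29156, had log2 ratios of 5.33, 5.03 and 4.75.

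**Figure D3:**
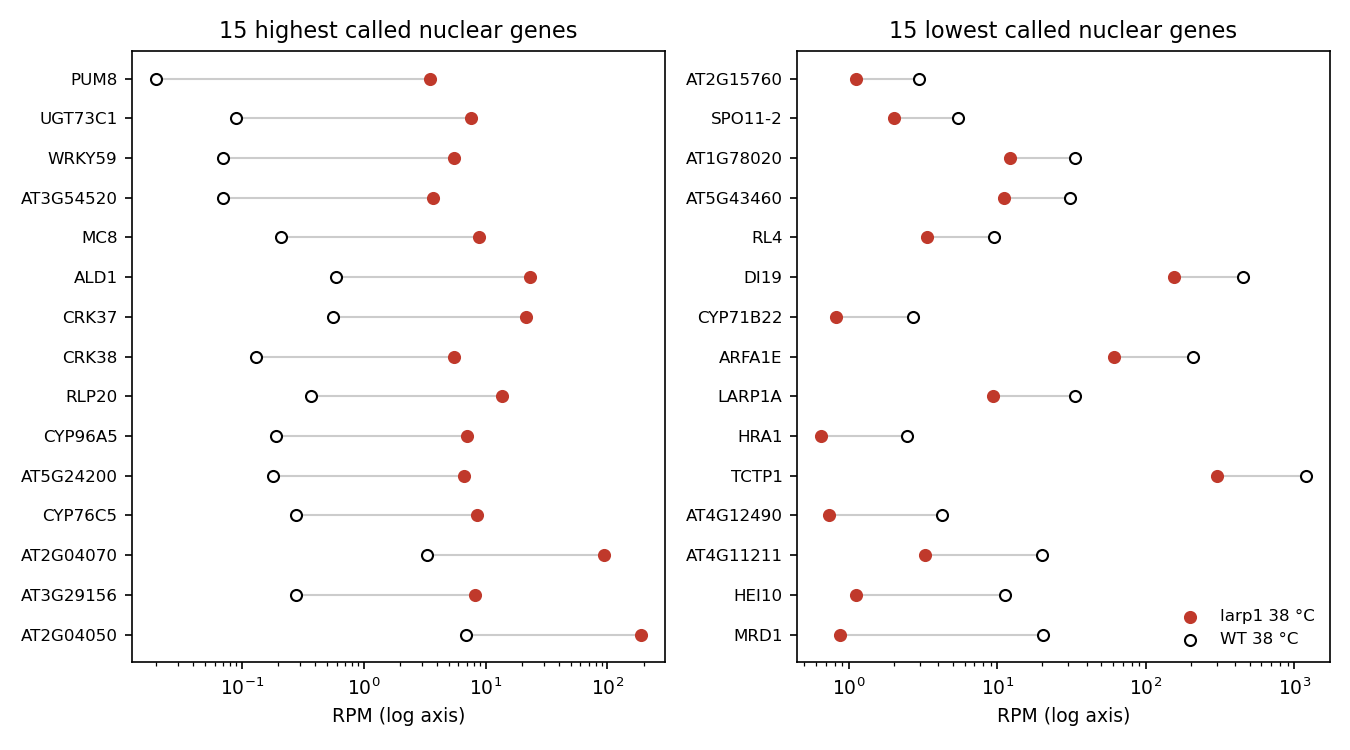
RPM (log axis) of the 15 highest and the 15 lowest called nuclear genes in larp1 at 38 °C (filled points) and WT at 38 °C (open points), 1 library each. On the left WT is below 1 RPM in 13 of 15 genes, and on the right TCTP1, DI19 and ARFA1E are the abundant members.

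The lowest genes were few and were led by a single locus. MRD1 (AT1G53480), named for its low expression in a methionine-overaccumulating mutant, stood at 0.87 RPM in larp1 and 20.4 RPM in WT (-4.52 [-5.06, -4.09]). Its neighbour HEI10 (AT1G53490), a meiotic ubiquitin ligase gene, was called at 1.12 RPM in larp1 and 11.3 RPM in WT. Of those HEI10 values, an entry that carries the name of MRD1 held 0.45 RPM in larp1 and 10.2 RPM in WT, so most of the signal counted for HEI10 in WT lay in that entry.

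Several of the 15 were abundant. TCTP1 (AT3G16640), the plant counterpart of the translationally controlled tumour protein, stood at 302 RPM in larp1 and 1189 RPM in WT (-1.98 [-2.01, -1.95]). In mammals the TCTP mRNA is a classical TOP mRNA. DI19 (AT1G56280), a drought-induced zinc finger factor, stood at 154 RPM in larp1 and 448 RPM in WT (-1.54 [-1.58, -1.50]). ARFA1E (AT3G62290), a small GTPase of vesicle traffic, stood at 61.1 RPM in larp1 and 206 RPM in WT (-1.76 [-1.82, -1.69]).

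The remaining lowest genes had lower levels. HRA1 (AT3G10040), a repressor of the low-oxygen response, stood at 0.65 RPM in larp1 and 2.46 RPM in WT (-1.89 [-2.58, -1.33]). CYP71B22 (AT3G26200) stood at 0.82 RPM in larp1 and 2.7 RPM in WT, and RL4 (AT2G18328), a small MYB-like factor, at 3.36 RPM in larp1 and 9.55 RPM in WT. AT4G11211 and AT4G12490, the second a lipid transfer protein family member, had log2 ratios of -2.62 and -2.50. AT5G43460, AT1G78020 and AT2G15760 lay between -1.47 and -1.41. SPO11-2 (AT1G63990), a meiotic recombination gene, was called at -1.42, but 2 of its 2.02 RPM in larp1 and its whole 5.44 RPM in WT lay in an entry that carries the name of the adjoining gene AT1G63980.

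Genes of salicylic acid and systemic immunity were higher as a group. Salicylic acid and N-hydroxypipecolic acid are the signals that arm plants against biotrophic pathogens. Of the 28 list members compared, 13 were called higher and 0 lower, against 3.92% higher among all genes, and the list median was 0.91 against 0.14. The list was chosen with earlier results of these data known, so these counts describe it and are no independent support. The 2 members below 0, GRXS13 (AT1G03850) and NIMIN3 (AT1G09415), had log2 ratios of -0.10 and -0.09. The list summed to 1283 RPM in larp1 and 612 RPM in WT, and at 20 °C its median was 0.78.

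Some, but not all, biosynthetic genes of both signals were called higher. Salicylic acid synthesis was represented by PBS3 (AT5G13320), which conjugates isochorismate to glutamate, with 121 RPM in larp1 and 8.9 RPM in WT (3.77 [3.62, 3.92]). ICS1, the isochorismate synthase upstream of it, stood at 68.3 RPM in larp1 and 10.6 RPM in WT. EDS5, the transporter of the same branch, was not called, at 36.1 RPM in larp1 and 24.3 RPM in WT (0.57). In the pipecolic acid branch ALD1, given above, and FMO1, the monooxygenase that makes N-hydroxypipecolic acid, were called, FMO1 at 41.1 RPM in larp1 and 4.22 RPM in WT. SARD4, a reductase of that branch, was not called, at 11.5 RPM in larp1 and 6.67 RPM in WT (0.78), and at 20 °C its log2 ratio was -0.19. DLO1 (AT4G10500), an enzyme that breaks salicylic acid down, stood at 7.59 RPM in larp1 and 0.58 RPM in WT (3.66 [3.11, 4.34]). ICS1, EDS5, FMO1 and SARD4, like the regulators and output genes named next, were picked from the list after their values were seen.

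Regulators and outputs of the pathway were less even. CBP60G, a transcription factor that activates ICS1, stood at 146 RPM in larp1 and 43.8 RPM in WT (1.74). WRKY51 and WRKY54 had log2 ratios of 2.75 and 2.30. WRKY70 (AT3G56400), the most abundant member, stood at 199.95 RPM in larp1 and 142 RPM in WT, a log2 ratio of 0.49 that was not called. Among the pathogenesis-related outputs, PR2 stood at 51 RPM in larp1 and 11.8 RPM in WT, and PR5 at 16.4 RPM in larp1 and 6.99 RPM in WT. PR1, the usual marker of the pathway, stood at 21.8 RPM in larp1 and 16.2 RPM in WT, which was under 2-fold. The receptor gene NPR1 was also not called, at 37.6 RPM in larp1 and 32.7 RPM in WT.

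Families of cell-surface receptors held many of the other higher genes. These families were picked by annotation after earlier results on the data were known. Of the 32 cysteine-rich receptor-like kinases compared, 13 were called higher, and so were 14 of 48 lectin receptor kinases and 10 of 31 receptor-like proteins, with 0 lower in each, against 3.92% higher among all genes. CRK13 stood at 57.6 RPM in larp1 and 6.42 RPM in WT, and CRK36, which lies beside CRK37, at 61.7 RPM in larp1 and 4.87 RPM in WT. LECRKA4.2 stood at 18.18 RPM in larp1 and 0.8 RPM in WT. Its neighbour LECRKA4.1 (AT5G01540) and the locus AT5G01542, which carries the same name, had almost the same values, 43.1 and 42.5 RPM in larp1 and 12.4 and 12.3 RPM in WT, and cannot be counted as separate genes. Of 15 genes annotated as numbered glutamate receptors, which encode calcium-permeable channels, 5 were called higher, led by GLR2.8 with 9.76 RPM in larp1 and 0.4 RPM in WT.

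Other immune, regulatory and metabolic families, picked in the same way, ranged from near the 3.92% of all genes upward, and the families were not tested against each other. Intracellular NLR immune receptors had 7 of 103 called higher, and leucine-rich repeat kinases 8 of 144. WRKY factors had 10 of 48 called higher and NAC factors 8 of 40. Proteins with the cysteine and histidine-rich C1 domain had 8 of 36, MATE transporters 8 of 37 and UDP-glycosyltransferases 20 of 97. Cytochromes P450 had 8 of 108 higher and 2 lower, glutathione S-transferases 3 of 36 higher, and pentatricopeptide repeat proteins, which process organelle RNA, 11 of 165.

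Oxidative and mitochondrial stress genes were the second group that was higher. When the respiratory chain is impaired, plant mitochondria signal to the nucleus, and NAC factors released from the endoplasmic reticulum switch on genes such as the alternative oxidases. Of the 16 members compared, 9 were called higher and 0 lower, against 3.92% higher among all genes, with a median of 1.26 against 0.14. All compared genes of the UGT73C cluster, described next, are among those 9, so the count rests largely on 1 cluster. This list, too, was chosen with earlier results of these data known. AOX1D (AT1G32350), an alternative oxidase that bypasses part of the respiratory chain, stood at 86.2 RPM in larp1 and 8.42 RPM in WT (3.35 [3.20, 3.52]). The main alternative oxidase, AOX1A (AT3G22370), stood at 169 RPM in larp1 and 56.5 RPM in WT (1.58 [1.51, 1.64]). OM66, an AAA-type ATPase of the outer mitochondrial membrane, was the most abundant of those called, at 413 RPM in larp1 and 163 RPM in WT.

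The UGT73C glucosyltransferases of this list lie side by side in the genome and are closely related in sequence, so reads may be shared among them. UGT73C6 (AT2G36790) stood at 131 RPM in larp1 and 13.9 RPM in WT, and UGT73C5 (AT2G36800), which inactivates brassinosteroids, at 101 RPM in larp1 and 15.3 RPM in WT. All 5 compared members of this cluster were called higher. The antioxidant enzymes of the list were not: CAT3, the most abundant member, stood at 1772 RPM in larp1 and 1520.5 RPM in WT, and APX1, the cytosolic ascorbate peroxidase, at 463 RPM in larp1 and 461 RPM in WT.

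A further set of known targets and regulators of mitochondrial signalling was added after these values had been seen. It shares AOX1A, OM66 and UPOX with the list above, and 9 of its 11 genes were called higher, against 3.92% of all genes. The sum over the set was 1277 RPM in larp1 and 374 RPM in WT. UGT74E2 (AT1G05680), an auxin glucosyltransferase, stood at 163 RPM in larp1 and 6.57 RPM in WT (4.63 [4.46, 4.81]). NDB4 (AT2G20800), an alternative NADH dehydrogenase, stood at 15.3 RPM in larp1 and 0.66 RPM in WT, and NDB2 at 54.9 RPM in larp1 and 38 RPM in WT, the first of them called. ANAC013, a factor that itself responds to the signal, stood at 53.6 RPM in larp1 and 22.2 RPM in WT (1.27). ANAC017, which is known to be controlled through release of its protein, stood at 27.9 RPM in larp1 and 24.3 RPM in WT and was not called.

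The promoters of the higher genes were read for the letters that the factors of these pathways bind. ANAC013 and ANAC017 bind the mitochondrial dysfunction motif, which is CTTG followed after 5 bases of any kind by CAAG or, in its second form, by CACG. It was searched on both strands in the 300 bases before the annotated gene start of the TAIR10.1 assembly, for the 11872 compared nuclear genes whose window overlaps no other annotated gene. The annotation matched 18334 of the genes compared. One of the 2 forms was found in 112 of all windows (0.943%), in 31 of 550 windows of genes called higher (5.64%), in 21 of 215 at least 4-fold higher (9.77%) and in 0 of 27 of genes called lower. Read the other way, 27.7% of the genes with the motif were called higher, against 4.63% of all genes with a window, and their log2 ratios had a median of 0.30 and ran from -0.43 to 6.17.

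The motif sites of the 8 genes with the largest ratios among those with at least 100 reads in 1 library, and that of the list member UPOX, are shown to let the shared letters be compared. Each is 53 bases from the genome on the strand of the gene, with the motif in capitals; a site that begins CGTG is the reverse complement of the second form.
AT3G29156 (chr3:11127763-11127815, minus strand): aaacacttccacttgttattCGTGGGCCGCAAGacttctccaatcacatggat
AT2G04050, distal site (chr2:1339651-1339703, minus strand): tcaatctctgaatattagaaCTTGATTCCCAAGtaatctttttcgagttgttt
AT2G04050, proximal site (chr2:1339592-1339644, minus strand): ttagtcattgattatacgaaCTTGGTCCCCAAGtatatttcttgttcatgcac
AT3G21080 (chr3:7390041-7390093, minus strand): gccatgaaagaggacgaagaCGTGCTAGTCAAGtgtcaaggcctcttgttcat
AT5G24040 (chr5:8127441-8127493, minus strand): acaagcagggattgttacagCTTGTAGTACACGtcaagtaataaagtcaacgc
AT3G28580 (chr3:10715357-10715409, plus strand): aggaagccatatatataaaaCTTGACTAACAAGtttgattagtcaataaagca
AT1G17960 (chr1:6183840-6183892, minus strand): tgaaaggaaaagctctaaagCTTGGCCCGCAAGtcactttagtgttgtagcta
AT4G28460 (chr4:14065832-14065884, plus strand): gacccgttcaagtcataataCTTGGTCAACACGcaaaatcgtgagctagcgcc
AT2G18193 (chr2:7919403-7919455, minus strand): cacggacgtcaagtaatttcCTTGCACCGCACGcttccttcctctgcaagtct
UPOX (chr2:9254307-9254359, plus strand): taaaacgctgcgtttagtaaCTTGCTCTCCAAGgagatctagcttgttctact

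These genes differed widely in level. AT2G04050, the MATE transporter described above, is the only compared gene called higher with 2 copies of the motif in its window, which start 215 and 156 bases before the gene. AT2G18193, a predicted AAA-type ATPase whose motif starts 90 bases before the gene, stood at 212 RPM in larp1 and 20.5 RPM in WT (3.37 [3.27, 3.47]). AT3G28580, another predicted ATPase of the P-loop class, stood at 27.4 RPM in larp1 and 2.23 RPM in WT (3.61 [3.32, 3.94]). UPOX (AT2G21640), a mitochondrial protein gene used as a marker of oxidative stress, has its motif 51 bases before the gene and stood at 16.1 RPM in larp1 and 7.09 RPM in WT (1.18 [0.98, 1.38]). The rest of those shown lay between 3.45 and 4.75 on the log2 scale, with at most 16.7 RPM in larp1.

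The other motifs searched were more common over all windows. The core of the W-box bound by WRKY factors, TTGAC, was found in 63.5% of windows of genes called higher, in 51.9% of those called lower and in 51.1% of all windows, and its longer form TTGACC in 21.5% of the higher, 14.8% of the lower and 14.2% of all windows. In genes at least 4-fold higher these shares were 70.2% for TTGAC and 29.3% for TTGACC. The TGA-factor core TGACG was in 25.8% of the windows of higher genes and 20.9% of all, and ACGTG, the core of abscisic acid response elements, in 34.4% of the windows of higher genes and 27.1% of all. The heat shock element core GAANNTTC was in 17.5% of the windows of higher genes and 10.6% of all. All were searched on both strands, and TTGAC and TGACG can overlap. In the salicylic acid list, 11 of 24 windows held TTGAC, 9 held TGACG and 0 held the mitochondrial motif. The mitochondrial motif was in 1 of 13 windows of the oxidative and mitochondrial stress list and in 1 of 7 of the added set. The gene was UPOX in each. Over all windows its share was 0.943%, and lists this short cannot show whether it is rare or frequent in them. Most higher genes with the motif thus lie outside these lists. A match is a string of letters in a window and no evidence of binding.

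**Figure D4:**
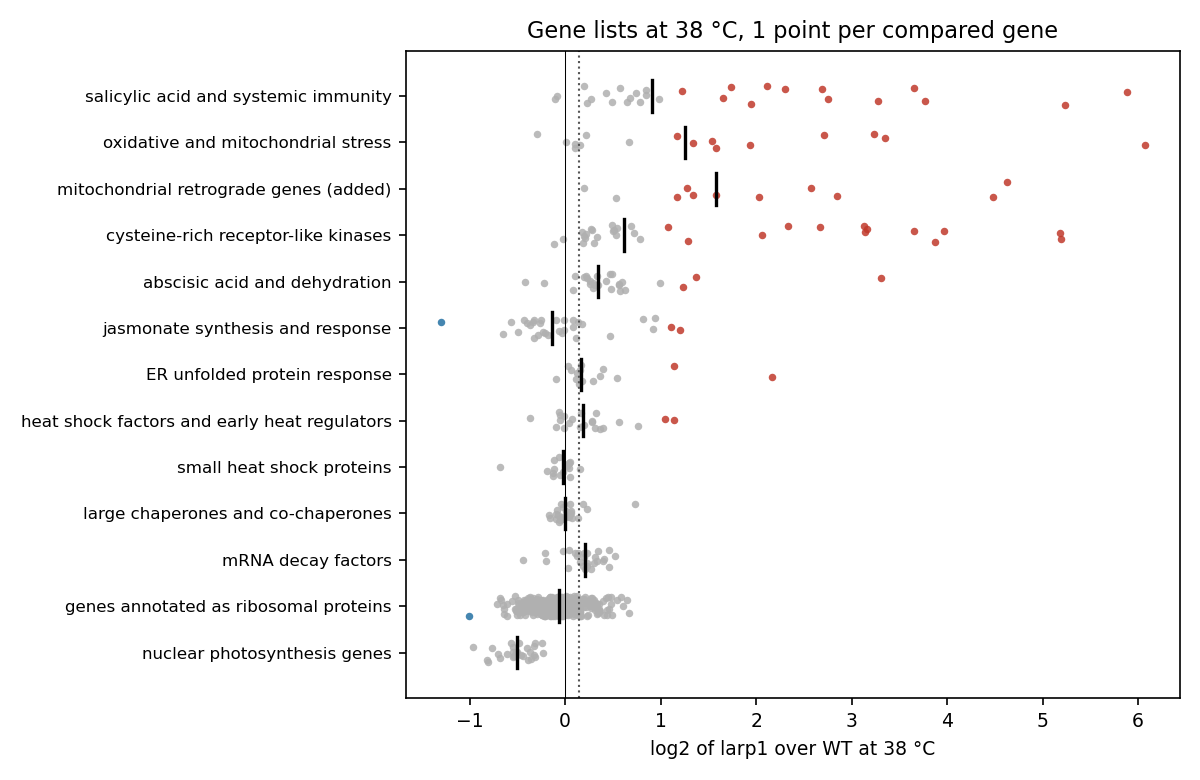
Log2 ratio of larp1 over WT at 38 °C for members of 13 gene lists, 1 point per compared gene, red if called higher, blue if called lower and grey if not called. Black bars are list medians and the dotted line is the median of all genes, 0.14; the top 4 lists reach far to the right, and the nuclear photosynthesis genes all lie left of 0.

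Levels of heat shock protein transcripts were mostly alike in both heated libraries. This compares levels after heating and not the rise from the unheated libraries. Small heat shock proteins, which hold unfolding proteins in solution, had 0 of 17 members called, against 4.12% of all genes called in either direction. Their median was -0.03 (-0.17 with TMM scaling), and 16 of the 17 were below the median of all genes. Their sum was 29504 RPM in larp1 and 30309 RPM in WT. The most abundant, HSP17.8-CI (AT1G07400), stood at 3945 RPM in larp1 and 4089.8 RPM in WT (-0.05 [-0.06, -0.04]). HSP15.4, at 7.48 RPM in larp1 and 12 RPM in WT, differed most of the 17 and was still under 2-fold.

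The larger chaperones also had 0 of 26 called, against the same 4.12% of all genes. Their median was -0.00, with sums of 92145 RPM in larp1 and 92815 RPM in WT. HSP90.2 (AT5G56030) stood at 11942.5 RPM in larp1 and 12201 RPM in WT, and HSP101, the disaggregase needed for acquired heat tolerance, at 10666 RPM in larp1 and 10466 RPM in WT. One member lay apart: MTHSC70-1 (AT4G37910), the mitochondrial HSP70, stood at 146 RPM in larp1 and 87.8 RPM in WT (0.73 [0.67, 0.79]). At 20 °C the same list had 8 members called lower in larp1 and a median of -0.44. HSP90.1 was one of them, with 16.4 RPM in larp1 and 72.9 RPM in WT at 20 °C and 7425 RPM in larp1 and 7393 RPM in WT at 38 °C. The list summed to 6468 RPM in larp1 and 10879 RPM in WT at 20 °C. Those 8 members thus rose by a larger factor in larp1 than in WT, to similar levels at 38 °C. That difference in rise was not tested over replicates.

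Among heat shock factors and early heat regulators 2 of 22 were called higher, against 3.92% of all genes, both outside the core heat response. HSFA8 (AT1G67970) stood at 15.9 RPM in larp1 and 7.16 RPM in WT, and HSFA4A (AT4G18880), a factor linked to hydrogen peroxide, at 79.8 RPM in larp1 and 38.5 RPM in WT. With TMM scaling HSFA8 was at 1.00 and HSFA4A at 0.90, and neither was called. HSFA2, the factor that sustains heat responses, stood at 3548 RPM in larp1 and 3677 RPM in WT, and the coactivator MBF1C at 4352 RPM in larp1 and 4549.95 RPM in WT. The unfolded protein response of the endoplasmic reticulum had 2 of 15 members called higher, against the same 3.92%. BIP3 (AT1G09080), its inducible HSP70, stood at 2.2 RPM in larp1 and 0.47 RPM in WT (2.17), and BZIP60 (AT1G42990), its transcription factor, at 173 RPM in larp1 and 78.4 RPM in WT (1.14), or 0.99 and not called with TMM scaling. The constitutive BIP1 and BIP2 were not called, at 0.40 and 0.55.

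Nuclear photosynthesis genes were lower throughout, each by less than 2-fold. All 27 members of the list, light-harvesting proteins, photosystem subunits and the Rubisco small subunit, lay below 0, between -0.96 and -0.23, with a median of -0.50. Their sum was 59156 RPM in larp1 and 85067 RPM in WT, and at 20 °C the same median was -0.08. LHCB1.3 (AT1G29930), the most abundant, stood at 11219.7 RPM in larp1 and 16035 RPM in WT, and LHCB1.2 (AT1G29910) had the largest difference, with 1939.6 RPM in larp1 and 3781 RPM in WT (-0.96 [-0.98, -0.95]). With TMM scaling LHCB1.2 was at -1.11 and called. The LHCB1 genes are near-identical and may share reads. LHCB3 (AT5G54270), which has no such copy, stood at 1020.2 RPM in larp1 and 1796 RPM in WT (-0.82). Ribosomal RNA had been removed with a nuclease that cuts abundant double-stranded cDNA, which acts on other abundant transcripts too; its part in this difference was not tested. Genes encoded in the chloroplast had 0 of 48 called, against 4.12% of all genes in either direction, and a median of -0.20. Their sums were 249.8 RPM in larp1 and 300.3 RPM in WT.

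Genes annotated as ribosomal proteins take in cytosolic and organellar ones. They had 0 of 332 members called higher and 1 lower, against 3.92% higher and 0.200% lower among all genes. Their median was -0.07, and 276 of the 332 lay below the median of all genes, 0.14. They summed to 20159 RPM in larp1 and 22950 RPM in WT, and at 20 °C their median was 0.00. The member called was RPS15A (AT1G07770), at 40.6 RPM in larp1 and 81.7 RPM in WT (-1.01 [-1.09, -0.93]), just past the 2-fold limit. The most abundant member, AT5G18380, stood at 489 RPM in larp1 and 683 RPM in WT (-0.48). For TCTP1, which is no ribosomal protein, the log2 ratio was -1.98.

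The mRNA decay machinery was measured because LARP1 works with it. Of 27 factors of decapping, deadenylation, exonucleolytic and nonsense-mediated decay, 0 were called. Among all genes 4.12% were called in either direction, a share at which a list this short holds few calls. The median of the list was 0.21. UPF3 (AT1G33980) and UPF1 (AT5G47010), which act in nonsense-mediated decay, had the largest of the positive ratios along with the decapping scaffold paralog VCR (AT3G13290). UPF1 stood at 46.5 RPM in larp1 and 33.9 RPM in WT (0.45). PAB8 (AT1G49760), a poly(A)-binding protein, was the lowest, at 50.7 RPM in larp1 and 68.6 RPM in WT (-0.44).

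The remaining hormone and stress lists had between 0 and 3 members called higher, to be read against the 3.92% of all genes, and the small counts are given for the genes they name. The abscisic acid and dehydration list had 3 of 27 called higher. RD29B (AT5G52300), a desiccation gene driven by abscisic acid, stood at 13.7 RPM in larp1 and 1.36 RPM in WT (3.31 [2.94, 3.74]). The dehydrin RAB18 stood at 41.9 RPM in larp1 and 17.9 RPM in WT, and HAI2, a protein phosphatase that damps the signal, at 10.4 RPM in larp1 and 4 RPM in WT. COR15A (AT2G42540), a chloroplast-protecting cold protein, lay just under the limit, with 921 RPM in larp1 and 462 RPM in WT (0.99).

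The jasmonate list had 2 of 32 called higher and 1 lower, around a median of -0.13. VSP1 (AT5G24780), a storage protein of leaves, stood at 52.1 RPM in larp1 and 22.6 RPM in WT, and PDF1.2A (AT5G44420), a defensin, at 0.94 RPM in larp1 and 2.34 RPM in WT. Rapid stress and touch genes had 3 of 19 called higher: WRKY53 (AT4G23810), CBF3 and CBF1, with log2 ratios of 1.41, 1.14 and 1.11. With TMM scaling CBF3 was at 0.99 and CBF1 at 0.96, which leaves WRKY53 alone called. In WRKY53 69.6% of the signal lay in entries that carry the name of another gene. In the list of glucosinolates and camalexin 1 of 12 was called, PAD3 (AT3G26830), the last enzyme of camalexin synthesis, at 46 RPM in larp1 and 13.4 RPM in WT (1.78 [1.64, 1.91]).

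The low-oxygen list had HRE2 (AT2G47520) at 7.08 RPM in larp1 and 2.05 RPM in WT and HRA1 lower, as above, among 13 compared. Of 13 clock genes, PRR5 was called higher, at 9.38 RPM in larp1 and 4.19 RPM in WT, and of 4 senescence genes, SAG13, at 14.9 RPM in larp1 and 4.83 RPM in WT. The SAUR genes of early auxin response had 2 of 35 called higher, led by AT3G12830 with 4.54 RPM in larp1 and 1.13 RPM in WT. None was called among core histones (36), iron and phosphate genes (7), flavonoid genes (7) or sugar and nitrate genes (7). Of 12 common reference genes, TCTP1 alone was called, and UBQ10, the most abundant, stood at 21995 RPM in larp1 and 20235 RPM in WT.

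Most markers of other tissues that could be compared were not called. Root markers, which whole plantlets contain, had 0 of 8 called, against 4.12% of all genes in either direction. Their sums over all 12 were 39.8 RPM in larp1 and 34.4 RPM in WT. Shoot meristem and stomatal lineage markers had 0 of 3 called, with sums of 11.64 RPM in larp1 and 11.86 RPM in WT. Flower markers summed to 0.85 RPM in larp1 and 0.75 RPM in WT over 10 genes, of which AP1 and AP3 were at 0 in larp1 and MYB24 in WT, and none reached 50 reads in either library. Of 3 seed markers only the storage gene AT2S1 had reads enough to be compared. It was called lower, at 1.47 RPM in larp1 and 3.87 RPM in WT. All 3 summed to 1.72 RPM in larp1 and 3.94 RPM in WT. Genes encoded in the mitochondrion had 1 of 76 called, against the same 4.12%. It was ATMG01210, at 1.01, or at 0.86 and not called with TMM scaling. The mitochondrion-encoded genes summed to 591 RPM in larp1 and 504 RPM in WT. The part of tissue make-up in the results above was not tested.

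Many genes higher in heated larp1 were also higher without heat. The comparison at 20 °C uses 2 other libraries and shares none with the one at 38 °C. At 20 °C 708 of 20299 genes were called higher (3.49%) and 100 lower (0.493%). Of 18314 genes compared at both temperatures, 718 were higher at 38 °C and 514 at 20 °C, and 396 were called higher in both, which is 55.2% of the first set and 77% of the second. On the lower side 35 genes were called at 38 °C and 65 at 20 °C, with 12 in both, which is 34.3% and 18.5%. MRD1, TCTP1, DI19, ARFA1E and LARP1A were among those 12. PBS3, AT2G04050 and CRK37 had nearly the same ratio at both temperatures, with 3.77, 4.74 and 5.19 at 38 °C and 3.74, 4.94 and 5.22 at 20 °C.

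**Figure D5:**
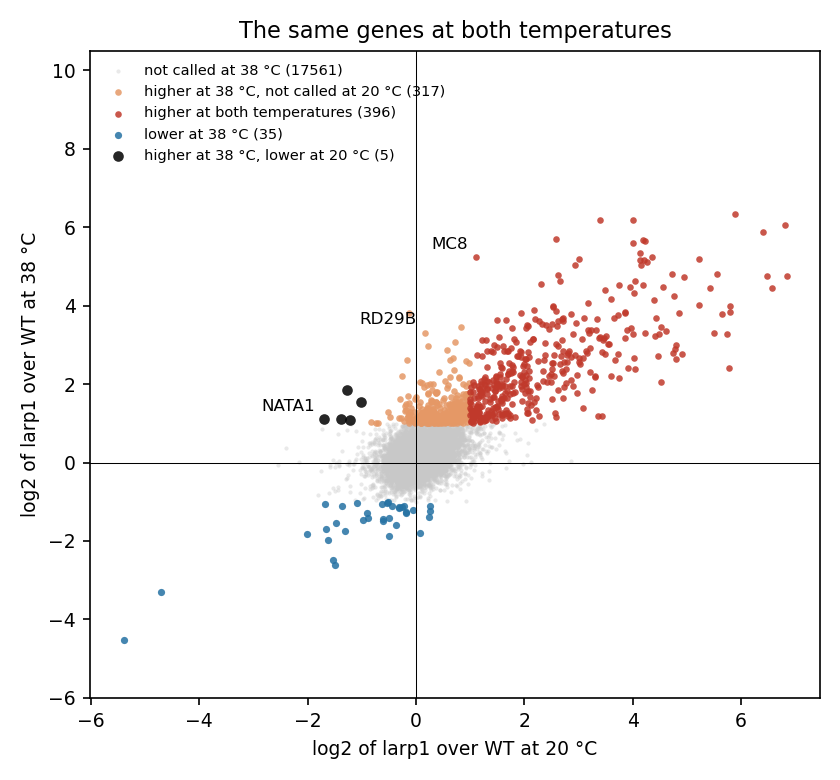
Log2 ratio of larp1 over WT at 38 °C (vertical) against the same ratio at 20 °C (horizontal) for the 18314 genes compared at both temperatures, 1 library per group. Genes called higher at both (396) run along the upper right, and 5 black points are called higher at 38 °C and lower at 20 °C.

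The mitochondrial motif, like others searched, was more frequent among genes higher at both temperatures. Among genes with a window, it was in 26 of 317 called higher at both temperatures (8.2%) and in 5 of 225 called higher at 38 °C but not called at 20 °C (2.22%). TTGAC was in 65.6% of the first set and 60.9% of the second, and TTGACC in 24.3% and 16.9%. The heat shock element core GAANNTTC was in 21.8% and 11.6%, TGACG in 28.4% and 23.1%, and ACGTG in 34.1% and 33.8%. These shares are descriptions of these windows, without a test.

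For some genes the log2 ratio of larp1 over WT was far higher at 38 °C than at 20 °C. The 5 largest differences of log2 ratios, 38 °C minus 20 °C, among nuclear genes at least 2-fold apart at 38 °C and with at least 100 reads at each temperature, were those of MC8, RD29B, NATA1, EXO70H1 and AT4G11000. MC8 had 4.13 [3.19, 5.07] and RD29B 3.14 [2.68, 3.61]. RD29B stood at 4.47 RPM in larp1 and 3.97 RPM in WT at 20 °C, a log2 ratio of 0.17. NATA1 (AT2G39030), an acetyltransferase induced by jasmonate, had a difference of 2.82 [2.45, 3.19], with 7.75 RPM in larp1 and 3.57 RPM in WT at 38 °C and 2.57 RPM in larp1 and 8.4 RPM in WT at 20 °C. EXO70H1 (AT3G55150), a subunit of the exocyst that tethers secretory vesicles, stood at 3.43 RPM in larp1 and 0.54 RPM in WT at 38 °C and at 2.74 RPM in larp1 and 3.06 RPM in WT at 20 °C. AT4G11000, an ankyrin repeat protein gene, had 9.75 RPM in larp1 and 0.86 RPM in WT at 38 °C and 16.9 RPM in larp1 and 9.51 RPM in WT at 20 °C. In MC8, EXO70H1 and AT4G11000 it was the WT value that was low at 38 °C, while the larp1 value stayed within 2-fold of its value at 20 °C.

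By the same rule, which takes only genes 2-fold apart at 38 °C, the 5 most negative differences are given next. AT5G35935, a transposable element gene, had a difference of -2.47, DREB19 (AT2G38340) -2.24, AT2G36440 -2.15, sks8 (AT1G21850), a multicopper oxidase-like gene, -2.11 and ARI12 (AT1G05880), a ubiquitin ligase of the ARIADNE family, -1.97. For example, sks8 stood at 15.44 RPM in larp1 and 0.68 RPM in WT at 38 °C and at 10.6 RPM in larp1 and 0.09 RPM in WT at 20 °C. Genes that were not 2-fold apart at 38 °C could also differ at 20 °C. One seen afterwards is the mitochondrial small heat shock protein HSP23.6-MTI (AT4G25200), with 1713 RPM in larp1 and 1666 RPM in WT at 38 °C and 3.78 RPM in larp1 and 0.5 RPM in WT at 20 °C, a difference of -2.82. The whole signal of DREB19 lay in an entry that carries the name of the adjoining gene AT2G38330.

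Neighbouring and overlapping genes limit how these counts can be read. Of the 726 genes called higher, 187 have a nearest compared gene, on either side in the TAIR10.1 order, that was also called higher. Of the 37 called lower, 4 have such a neighbour called lower. Among all genes 3.92% were called higher and 0.200% lower. Whether neighbours shared calls more often than these shares would give was not tested. The use of strand in counting is not given in the sources used here. In 29 of the genes called higher and 2 of those called lower, more than 50% of the signal lay in entries that carry the name of another gene. The same held for 839 of the 18528 genes compared.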

How the data were processed

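RNA was extracted from pools of whole plantlets, ribosomal RNA was removed with duplex-specific nuclease, RNA was broken with zinc, and single reads of 100 bp were sequenced, per the labels' protocols. Reads were aligned with BWA 0.5.9 to TAIR10, per the submitters' processing notes. Neither the counting tool nor whether it used strand is given in the sources used here. The deposited signal values are reads per exon entry scaled to the library total, called rpm per the file headers, with 2 decimals. The table has 181379 entries, 49207 of them repeats, for 25819 genes, and a gene's value is the sum of its distinct entries. Because entries of overlapping transcripts recur, the columns sum to between 1056660 and 1090376. Reads were recovered from the smallest step of the values, 0.0223 RPM in larp1 and 0.0235 RPM in WT at 38 °C, and at least 99.9% of values in each of the 4 libraries were whole reads within 0.0051 RPM. Overlapping exon entries can count a read more than once, so intervals may be too narrow. A count of 0 allows up to 3 reads, 0.0668 RPM in larp1 and 0.0704 RPM in WT.

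Ratios are log2 of larp1 over WT after adding the worth of 1 read. Intervals are exact Clopper-Pearson intervals of the share of reads (95%). With 1 library per group no count model was fitted. The calling rule was tried on simulated reads with counting error only, which does not cover variation between pools. Gene names and upstream windows came from the TAIR10.1 assembly, which matched 25408 genes. Named genes were the LARP1 genes, the 15 highest and 15 lowest called nuclear genes with 100 reads or more, up to 4 members of each list with the largest differences and its most abundant one, and the 5 largest differences between temperatures each way; others were chosen after their values were seen. The members and lists were chosen with earlier results of these data known. Alternatives changed the scaling, the read minimum, the pseudocount, the entries summed and the fold threshold. The authors' lists of heat-regulated genes were not used for values. The computations ran in Python 3.11.15 with scipy 1.17.1, pandas 2.3.3 and numpy 2.4.6, and the plots in matplotlib 3.10.9.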

Additional observations from a re-analysis of the deposited data

Results flagged for a closer look

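In all, 5 genes were called higher in larp1 at 38 °C and lower in larp1 at 20 °C, and the difference between the temperatures was not tested over replicates. AT1G30250, of unknown function, had a log2 ratio of 1.84 at 38 °C, with 4.12 RPM in larp1 and 1.13 RPM in WT, and of -1.28 at 20 °C, with 0.66 RPM in larp1 and 1.61 RPM in WT. NATA1, an acetyltransferase gene, had 1.11 at 38 °C, with 7.75 RPM in larp1 and 3.57 RPM in WT, and -1.70 at 20 °C, with 2.57 RPM in larp1 and 8.4 RPM in WT. AT3G28270 had 1.11 at 38 °C, with 29.9 RPM in larp1 and 13.9 RPM in WT, and -1.37 at 20 °C, with 24.3 RPM in larp1 and 63.1 RPM in WT. ABCG27, an ABC transporter gene, had 1.54 at 38 °C, with 1.53 RPM in larp1 and 0.51 RPM in WT, and -1.02 at 20 °C, with 1.63 RPM in larp1 and 3.31 RPM in WT. PGL5, a 6-phosphogluconolactonase gene, had 1.07 at 38 °C, with 25.3 RPM in larp1 and 12 RPM in WT, and -1.21 at 20 °C, with 14.8 RPM in larp1 and 34.4 RPM in WT. With TMM scaling NATA1, AT3G28270 and PGL5 were at 0.96, 0.96 and 0.93 at 38 °C and no longer called.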

How the results depend on the processing

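The count of genes lower moved to 68 with TMM scaling and to 67 with median-of-ratios scaling, and the 37 called with library totals were among both. The same scalings lowered the count of genes higher from 726 to 583 and 585. With each of them 363 genes were higher at both temperatures, against 396 with library totals. A minimum of 10 reads gave 1212 genes higher and 125 lower. No minimum gave 1287 higher and 144 lower, with 597 higher at both temperatures. A minimum of 200 reads gave 402 higher, 22 lower and 257 higher at both temperatures. A 3-fold threshold gave 359 higher, 11 lower and 233 higher at both. The counts under the other alternatives stayed within 1.5 times, among them 539 higher and 33 lower without called genes next to a gene called the same way, and 697 higher and 35 lower without genes whose signal lay mostly in entries named for another gene, both chosen after seeing the data. Over 178 named genes, 1855 of 1919 alternative values kept their side of the threshold. Among the named genes called with library totals, 0 values changed direction. Direction was not followed for the named genes that were not called, and some of those with ratios near 0 change sign with the scaling. No paired analysis was possible because each group has 1 library. Depth limits the genes nearest the floor, where 1 to 4 reads in WT set the ratio.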
